A study of Mus musculus with 15 samples.

Results

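Small intestinal macrophages that carry CD4 on their surface were sorted into cells with Tim-4 (Tim-4+CD4+) and cells without it (Tim-4-CD4+), and their gene expression was compared by RNA sequencing. The comparison rests on 8 of the 15 libraries of the series, 4 from each subset, chosen by their deposited names, and it describes what differed with Tim-4 among cells that were all CD4+. Cells came from the small intestine of adult male wild-type C57BL/6 mice, and each library held cells pooled from 3 mice. The study describes 4 independent sorts for the macrophages, so that libraries of both subsets may share a sort and its mice. Both subsets passed the same gate of live CD45+CD11b+CD64+MHCII+ cells without lineage markers, so that only the gate for Tim-4 differed. The remaining 7 libraries were 4 from Tim-4-CD4- macrophages and 3 from Ly6Chi blood monocytes of the same strain, which entered the fit that estimated the spread and are otherwise given only as levels set side by side.

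Macrophages of the gut wall ingest dying cells, sample the lumen and keep inflammation in check. Most are replaced by monocytes that enter from the blood through the chemokine receptor CCR2, whereas tissue-resident macrophages in several organs carry Tim-4, a receptor that binds phosphatidylserine on dying cells. CD4, best known as the coreceptor of helper T cells, is also found on some macrophages.

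Library depth, as reads counted on genes, was 39568129 to 151510641 without Tim-4 and 59404864 to 116123886 with it. Levels are given as counts per 1e+06 counts (CPM) after scaling by the trimmed mean of M values, and a library with no count of a gene could have held up to 3 counts by counting error alone, which equals 0.0198 to 0.0758 CPM at these depths. Tim-4+CD4+ replicate 1 stood apart from its group, since the chi-square of its counts against the other 3 was 212 to 272 per degree of freedom, compared with 38.9 to 74.7 among those 3. Tim-4-CD4+ replicate 3 stood apart from its group too, at 65 to 128 against the other 3, compared with 22.8 to 42.8 among those 3. Defining macrophage genes were high in both subsets, with Csf1r, the receptor for the growth factor M-CSF, at a mean of 6171 CPM in Tim-4-CD4+ and 6677 CPM in Tim-4+CD4+ cells, and Fcgr1, which encodes the CD64 of the gate, at 274 and 268 CPM. The summed level of 18 T cell genes was 18 to 29.3 CPM in Tim-4-CD4+ and 14.1 to 19.9 CPM in Tim-4+CD4+ libraries, beside 531 CPM and 816 CPM of Cd4.

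Timd4, which encodes Tim-4 and lies on chromosome 11 (GRCm38, 46810800 to 46844332, plus strand), was measured at 4.47, 1.29, 0.511 and 0.547 CPM in Tim-4-CD4+ replicates 1 to 4 and at 389.9, 336, 359 and 337 CPM in Tim-4+CD4+ replicates 1 to 4, the order used throughout. The libraries did not overlap, and none went against its label. The difference was 7.81 ± 0.71 on the log2 scale (standard error of the fit; adjusted p = 5.53e-06 by edgeR's quasi-likelihood test with Benjamini-Hochberg adjustment over all genes, as for every adjusted p here). Cd4 itself was present in both subsets, at 484, 499, 598 and 541 CPM without Tim-4 and 755, 752, 924 and 832 CPM with it. Its libraries did not overlap either, but the difference of 0.62 ± 0.22 did not pass the test (adjusted p = 0.166), and it did so with the 8 libraries fitted alone (adjusted p = 0.0073).

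Of 15802 genes tested, 539 (3.41%) differed between the subsets at an adjusted p under 0.05. Of these, 327 (2.07%) were higher and 212 (1.34%) were lower in Tim-4+CD4+ macrophages, with median differences of 1.19 and -0.93 on the log2 scale, while the median over all genes tested was near 0 (-0.0019). A change of at least 2-fold was found for 184 of the higher and 93 of the lower genes. Libraries of the subsets did not overlap for 525 of the 539 genes, compared with 1522 (9.63%) of all genes tested. Without Tim-4+CD4+ replicate 1, 465 genes differed, 269 of them higher and 196 lower. Without Tim-4-CD4+ replicate 3, 493 genes differed, 307 of them higher and 186 lower. Of the 108 called genes chosen by the naming rules given with the processing, 71 passed in each of 8 fits that left out 1 library. The remaining 37, each with an adjusted p of 0.0102 or more, are given below with the libraries whose removal ended the call. Called genes outside those rules, named near the end, were not followed in these fits.

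**Figure D1:**
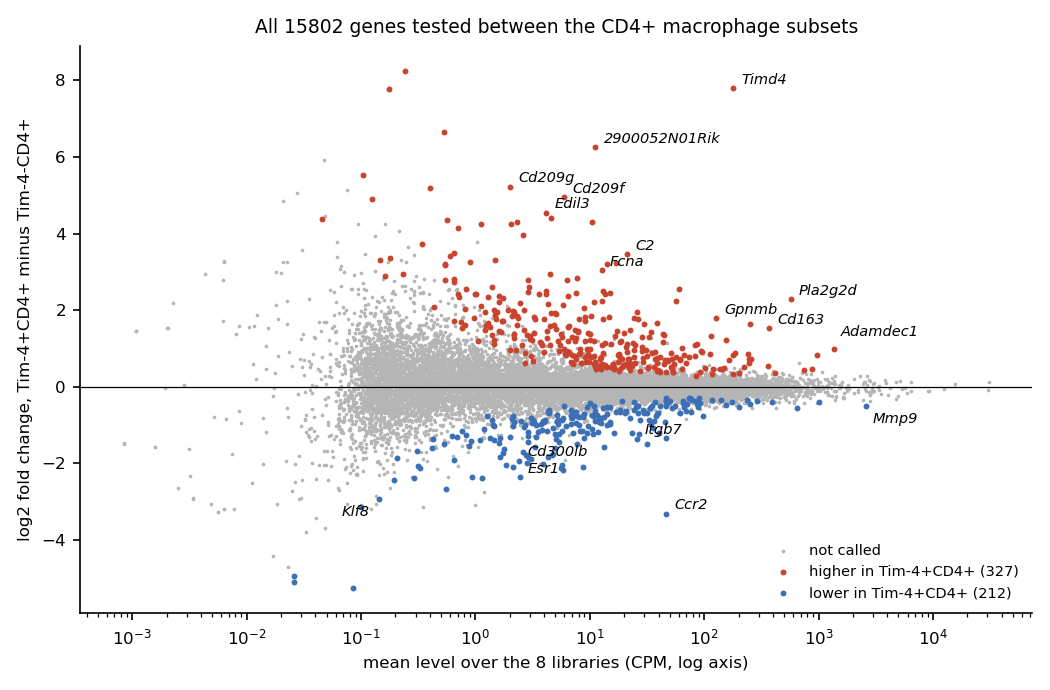
Each point is 1 of the 15802 genes tested, with its mean level over the 8 libraries (CPM, log axis) against the log2 fold change of Tim-4+CD4+ over Tim-4-CD4+ macrophages; red and blue points passed the test. Timd4 stands at 7.81, Ccr2 at -3.31, and the highly expressed Pla2g2d, Cd163 and Adamdec1 lie above 0.

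Outside the gene of the sort, most of the largest increases were in genes that averaged less than 1 CPM in Tim-4-CD4+ cells. Exceptions were C2, Spock1 and Camk2n1, at means of 3.58, 3.34 and 2.75 CPM there, and Fndc5 at 1.02 CPM. The 15 largest changes upward among genes without overlap that averaged 1 CPM or more began with Timd4, followed by the long noncoding RNA 2900052N01Rik (chromosome 9, 46913493 to 46927366, plus strand), at 0.238, 0.405, 0.153 and 0.365 CPM without Tim-4 and 21.2, 15.1, 27 and 25.3 CPM with it. Every Tim-4+CD4+ library was above every Tim-4-CD4+ library, by 6.25 ± 0.32 (adjusted p = 2.03e-08). Edil3, which encodes a secreted protein that binds phosphatidylserine and integrins, went from 0.458, 0.379, 0.256 and 0.290 CPM to 6.28, 7.32, 9.02 and 9.24 CPM (4.55 ± 0.44, adjusted p = 8.72e-06). Fndc5, the gene of the precursor of irisin, was at 1.34, 0.936, 0.729 and 1.07 CPM and at 26.1, 16.8, 17.7 and 19.5 CPM (4.30 ± 0.45, adjusted p = 1.65e-05). Both were separate in all libraries, by a gap wider than the spread within either subset.

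Elavl4, an RNA-binding protein of neurons, had a mean of 0.204 ± 0.086 CPM in Tim-4-CD4+ and 3.88 ± 1.26 CPM in Tim-4+CD4+ libraries (SD, n = 4 each), a difference of 4.24 ± 0.44. Camk2n1, an inhibitor of the calcium/calmodulin-dependent kinase CaMKII, rose from 3.21, 1.87, 4.02 and 1.91 CPM to 36.7, 18.8, 23.8 and 22.6 CPM, and Spock1, a secreted proteoglycan, from 3.41, 4.00, 2.69 and 3.26 CPM to 23.5, 29.5, 35.8 and 34.9 CPM. Their differences were 3.21 ± 0.28 and 3.22 ± 0.27, with no overlap. Fstl4, a follistatin-like protein, rose by 3.96 ± 0.54, Fzd8, a receptor for Wnt ligands, by 4.30 ± 0.54, the zinc finger gene Zfp641 by 4.41 ± 0.46, Hpdl, a mitochondrial dioxygenase-like protein, by 4.26 ± 0.58, and Arhgap42 by 3.31 ± 0.39. All 30 of the largest changes in either direction passed the test under every alternative that gave a value.

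**Figure D2:**
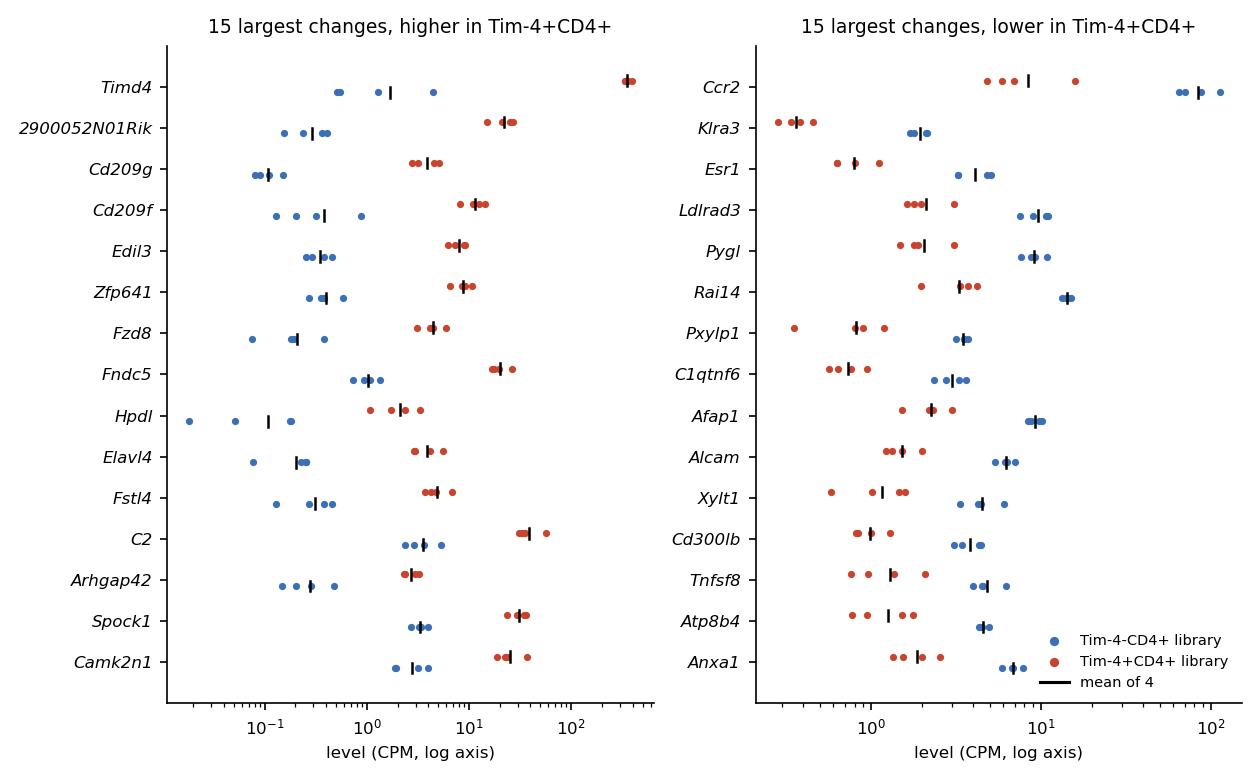
Levels in each of the 8 libraries (CPM, log axis) of the 15 genes with the largest changes in each direction; points are libraries and black ticks are means of 4. In no gene do the blue Tim-4-CD4+ and the red Tim-4+CD4+ points overlap, by the rule that chose the genes.

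Ccr2, the receptor through which monocytes answer CCL2, had the largest decrease of the genes above 1 CPM. It was measured at 113, 70.2, 65.2 and 87.7 CPM in Tim-4-CD4+ cells and at 6.98, 15.8, 5.92 and 4.84 CPM in Tim-4+CD4+ cells, and all 4 libraries with Tim-4 lay below all 4 without it. The difference was -3.31 ± 0.31 (adjusted p = 5.88e-06). Esr1, which encodes estrogen receptor alpha, fell from 3.26, 3.24, 5.05 and 4.83 CPM to 1.12, 0.800, 0.627 and 0.630 CPM (-2.35 ± 0.22), and Alcam, an adhesion molecule of the immunoglobulin family, from 6.32, 7.0, 5.37 and 6.18 CPM to 1.22, 2.00, 1.33 and 1.53 CPM (-2.02 ± 0.15). Anxa1, a phospholipid-binding protein that dampens inflammation, fell from 6.72, 7.79, 6.83 and 5.87 CPM to 2.54, 2.00, 1.54 and 1.34 CPM (-1.84 ± 0.18).

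Among the remaining large decreases were genes of metabolism, the cytoskeleton and surface receptors. Pygl, the glycogen phosphorylase first known from liver, fell by 2.12 on the log2 scale, from a mean of 9.11 ± 1.34 to 2.06 ± 0.70 CPM (SD, n = 4). Xylt1 and Pxylp1, enzymes that start and trim the linker of glycosaminoglycan chains, fell by 2.00 and 2.10. Rai14 and Afap1, which bind actin filaments, fell by 2.10 and 2.04, Rai14 from 14.2 ± 0.69 to 3.31 ± 0.96 CPM. Of the receptors and ligands, Ldlrad3 fell by 2.17, the phospholipid-binding receptor Cd300lb by 1.93 and Tnfsf8, the ligand of CD30, by 1.89. Klra3, a lectin-like receptor of the Ly49 family, differed by -2.39 ± 0.27, and its reads could be lost or misplaced among near-identical members. C1qtnf6 and Atp8b4, a member of the phospholipid flippase family, differed by -2.04 ± 0.23 and -1.85 ± 0.19. Of these 15 genes, Ccr2 alone was named in the study's text.

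The genes chosen for their difference in mean CPM, among those called and without overlap, included these secreted proteins. Pla2g2d, a secreted phospholipase A2, went from 172, 209.9, 225 and 169 CPM to 969.9, 924, 997 and 905 CPM, the highest Tim-4-CD4+ library lying far below the lowest Tim-4+CD4+ library (2.29 ± 0.13, adjusted p = 6.36e-08). Adamdec1, a metalloprotease-like protein that is abundant in gut macrophages, went from 819.7, 993, 774 and 1086 CPM to 1964, 1698, 1695 and 1935 CPM (0.99 ± 0.16, adjusted p = 0.00116). Ecm1, an extracellular matrix protein, rose by 0.83 ± 0.14 from a mean of 705 CPM to 1253 CPM. Gpx3, the secreted glutathione peroxidase, rose by 1.64 ± 0.19 from 123 CPM to 384 CPM.

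Of the proteins that stay in the cell, Txnip, which binds thioredoxin, rose from 737 ± 57 to 1025 ± 50 CPM. Hjurp, a chaperone of the centromeric histone, went from 639 ± 69 to 864 ± 71 CPM (adjusted p = 0.0254), a call that was lost without Tim-4-CD4+ replicate 1 (0.083) or Tim-4+CD4+ replicate 4 (0.0994). In the other direction, Mmp9, a gelatinase that degrades matrix, was at 2966, 2887, 3180.2 and 3276 CPM and at 2107, 2367, 2197 and 1958 CPM (-0.51 ± 0.12, adjusted p = 0.0237), with no overlap. Its call was lost in 6 of the 8 fits without 1 library, those without Tim-4-CD4+ replicate 1, 3 or 4 or Tim-4+CD4+ replicate 1, 3 or 4 (adjusted p up to 0.0887). Emb, a surface glycoprotein related to basigin, fell from 237 ± 11 to 164 ± 14 CPM (-0.53 ± 0.09, adjusted p = 0.0012). The differences of Sema4d, a semaphorin of leukocytes, Plxdc2, a surface receptor, and Zfand5, a zinc finger protein of the proteasome pathway, were -0.41 ± 0.09, -0.46 ± 0.10 and -0.36 ± 0.09. Sema4d lost its call without Tim-4-CD4+ replicate 4, Plxdc2 without Tim-4-CD4+ replicate 1 or 4 or Tim-4+CD4+ replicate 4, and Zfand5 without Tim-4-CD4+ replicate 1 or 4 or Tim-4+CD4+ replicate 3 or 4 (adjusted p up to 0.108).

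Of the CD209 lectins, receptors related to DC-SIGN that bind sugars of microbes, 2 of 7 rose (28.6% called). The share called in this list and in each list below stands beside 3.41% of all genes tested. Lists were chosen with earlier results of these data known, so their shares are no independent evidence. After Timd4, the 2 lectins that rose had the largest changes of the protein-coding genes above 1 CPM without overlap. Cd209f was at 0.879, 0.202, 0.320 and 0.128 CPM without Tim-4 and 12.6, 8.18, 14.3 and 10.9 CPM with it (4.96 ± 0.49, adjusted p = 1.06e-05). Cd209g was at 0.110, 0.152, 0.0895 and 0.0810 CPM and at 4.55, 3.18, 5.13 and 2.75 CPM (5.23 ± 0.47, adjusted p = 1.1e-05). The other 5 members did not pass the test. Cd209b, the SIGN-R1 lectin, came nearest, at a mean of 29.8 and 65.5 CPM (1.14, adjusted p = 0.056), whereas Cd209a was at 13.1 and 7.73 CPM (-0.76, adjusted p = 0.24). The median difference of the 7 was 0.70. The genes are close copies of each other. Only unique reads were counted, so reads that fit more than 1 copy were lost, and others could still be misplaced.

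Cd209f and Cd209g lie apart from the other 5 genes of the family on chromosome 8 and on opposite strands, and the sequences before their RefSeq starts are shown because the pair moved together. The 250 bases before the start that RefSeq gives for each gene (GRCm38.p6) were chr8:4105765-4106014 on the minus strand for Cd209f and chr8:4134486-4134735 on the plus strand for Cd209g, and capitals mark matches to TGANTCA, the letters bound by AP-1, and to TATAAA, found ahead of many gene starts. The GENCODE models used for positions differ from these starts, with Cd209g beginning at 4134098, so that its stretch lies inside that gene model, and Cd209f reaching to 4105835, inside its stretch.
Cd209f: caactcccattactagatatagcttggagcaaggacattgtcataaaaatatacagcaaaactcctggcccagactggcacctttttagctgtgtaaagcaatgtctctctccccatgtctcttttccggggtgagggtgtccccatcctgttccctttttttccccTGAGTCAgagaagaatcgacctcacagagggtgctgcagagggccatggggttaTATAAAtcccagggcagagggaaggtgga
Cd209g: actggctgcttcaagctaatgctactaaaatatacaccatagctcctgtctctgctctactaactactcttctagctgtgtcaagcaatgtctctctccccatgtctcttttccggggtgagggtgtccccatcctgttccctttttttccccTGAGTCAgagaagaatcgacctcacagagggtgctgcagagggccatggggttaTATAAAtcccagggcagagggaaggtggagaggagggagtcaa
A run of 154 bases was identical in both, starting 168 bases before the start of Cd209f and 154 bases before that of Cd209g, and both matches lay inside it. Shifted by 14 bases, the sequences were identical at 189 of 236 positions (80.1%). In the other 20 pairs of the 7 promoters, the longest identical run was 7 to 12 bases and the best identity without gaps was 29% to 46.9%. On both strands, TGANTCA was found in 5.62% of the 11142 genes tested that had a RefSeq promoter (7.82% of all 27025 in the table), in 7.87% of 254 higher genes and in 12.8% of 164 lower genes. TATAAA was found in 8.46% of those tested (14.3% of all), in 10.2% of the higher and in 13.4% of the lower genes. GAGGAAGT, the core bound by PU.1, was found in 3.3% of those tested (2.79% of all), in 3.94% of the higher and in 3.66% of the lower genes. CACGTG, the E-box, was found in 9.5% of those tested (6.86% of all), in 9.06% of the higher and in 8.54% of the lower genes. These are matches of letters and not measured binding.

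Of the scavenger and mannose receptors, which take up modified proteins and dying material, 4 of 18 rose and none fell (22.2% called), with a median of 0.39. Cd163, the receptor for haptoglobin-hemoglobin, was at 229, 194, 190.0 and 152.4 CPM without Tim-4 and 397, 505, 793 and 513 CPM with it, without overlap (1.53 ± 0.19, adjusted p = 9.57e-05). Stab2, which takes up hyaluronan and binds phosphatidylserine, was at 1.34, 1.62, 3.31 and 2.01 CPM and at 9.21, 7.94, 17.2 and 8.53 CPM (2.36 ± 0.37). Folr2, a folate receptor of resident macrophages, rose from 8.48 ± 1.47 to 18.8 ± 4.8 CPM. Marco was low in both subsets, at 0.140 ± 0.095 and 0.953 ± 0.431 CPM (2.79 ± 0.65, adjusted p = 0.0233), and lost its call without Tim-4-CD4+ replicate 2, 3 or 4 or Tim-4+CD4+ replicate 4 (adjusted p up to 0.0857). Mrc1 and Msr1, the mannose and class A scavenger receptors, had differences of -0.13 and 0.01, and Lyve1 one of 1.25 (adjusted p = 0.091).

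Receptors and bridging proteins for phosphatidylserine, the class to which Tim-4 belongs, moved in both directions, with 3 of 23 higher, 2 lower (21.7% called) and a median of 0.12. Besides Edil3 and Stab2, Mfge8, a bridge from phosphatidylserine to integrins, rose from 15.5, 16.9, 14.8 and 17 CPM to 42.8, 33.7, 24.5 and 35.4 CPM (1.09 ± 0.13, adjusted p = 8.57e-05), every library with Tim-4 lying above those without. Cd300lb and Anxa1 fell, as given above. The receptor tyrosine kinases Axl and Mertk were at 799 and 860 CPM and at 170.3 and 199 CPM, differences of 0.11 and 0.22, and Stab1 of 0.28, none of which passed the test.

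Complement genes rose in 4 of 22 cases and fell in none (18.2% called, median 0.17). C2, a serine protease of the classical and lectin pathways, went from 5.35, 3.67, 2.39 and 2.90 CPM to 56.5, 35.1, 33.1 and 30.6 CPM, a difference of 3.45 ± 0.36 (adjusted p = 1.65e-05) with a wide gap between the subsets. Fcna, a ficolin that starts the lectin pathway, went from 2.93, 2.55, 4.08 and 1.49 CPM to 27, 17.2, 29.7 and 16.4 CPM (3.04 ± 0.33, adjusted p = 2.74e-05). Both genes overlap others, C2 with Gm20547 on its strand and Zbtb12 on the opposite strand and Fcna with Fcnaos on the opposite strand, and without the strand setting of the count such reads cannot be assigned with certainty. C4b, the partner that C2 binds, rose from 65.6 ± 15.3 to 165 ± 20 CPM (1.34 ± 0.29, adjusted p = 0.0154), a call lost without Tim-4-CD4+ replicate 4 (0.0594). The genes of C1q, which begins the classical pathway, were at means of 2594 to 4069 CPM with differences of 0.09 to 0.19 that did not pass the test.

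**Figure D3:**
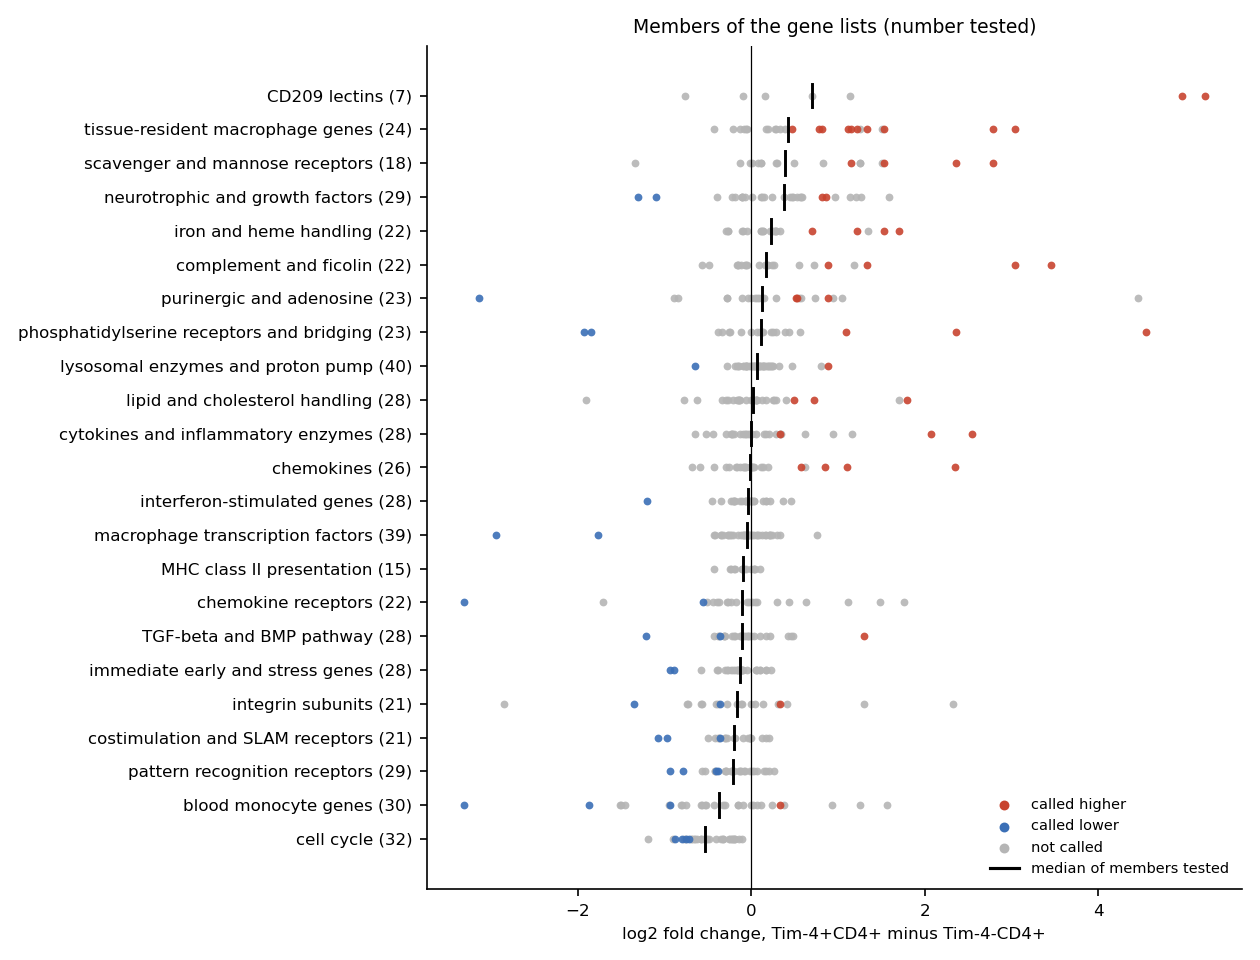
Log2 fold changes of Tim-4+CD4+ over Tim-4-CD4+ macrophages for the members tested of 23 gene lists, 1 row per list, sorted by the median (black tick); red and blue points passed the test. CD209 lectins have the highest median (0.70) and cell cycle genes the lowest (-0.53), where all 32 members lie below 0.

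The chemokine genes that passed the test were higher and the chemokine receptor genes that passed were lower, but their lists had medians of -0.01 and -0.11. Below 0 lay 15 of the 26 chemokine genes and 13 of the 22 receptor genes. The shares called were 15.4% and 9.09%, beside 3.41% of all genes tested. Of 26 chemokine genes 4 rose: Ccl24, a ligand of CCR3, from 54.5, 64.9, 51.3 and 51.0 CPM to 136, 117, 104 and 119 CPM (1.10 ± 0.17, adjusted p = 0.000929), Cxcl12, the ligand of CXCR4, from 6.89 ± 0.63 to 12.4 ± 1.5 CPM, Cxcl14 from 15.6 ± 2.5 to 23.2 ± 4.4 CPM, and Cxcl13, a B cell attractant, from 0.431 ± 0.307 to 2.17 ± 0.66 CPM. Ccl24 and Cxcl12 kept their calls without any 1 library. Cxcl13 (adjusted p = 0.0308) lost its call without Tim-4-CD4+ replicate 2, 3 or 4 or Tim-4+CD4+ replicate 3 or 4, and Cxcl14 (adjusted p = 0.0477) without Tim-4-CD4+ replicate 1, 2 or 4 or Tim-4+CD4+ replicate 1 or 4, with adjusted p up to 0.0996 and 0.165. Of 22 chemokine receptors 2 fell, Ccr2 and Ccrl2, a nonsignaling receptor for chemerin, which was at 632, 743, 893 and 834 CPM and at 632, 501, 535 and 439 CPM, with the lowest Tim-4-CD4+ and the highest Tim-4+CD4+ libraries at like levels (-0.56 ± 0.14, adjusted p = 0.0314). Its call was lost without Tim-4-CD4+ replicate 2, 3 or 4 or Tim-4+CD4+ replicate 2, 3 or 4 (adjusted p up to 0.117). Cx3cr1, the fractalkine receptor of gut macrophages, was at 1022 ± 129.5 and 991 ± 125 CPM (-0.04 ± 0.14, adjusted p = 0.916).

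Of 30 genes typical of blood monocytes, Ccr2 among them, 3 fell and 1 rose (13.3%, beside 3.41% of all genes tested), 20 lay below 0 and the median was -0.37. Cd177, a surface protein of neutrophils and monocytes, was at 0.586, 0.228, 0.269 and 0.236 CPM and at 0.107, 0.0775, 0.0322 and 0.116 CPM (-1.86 ± 0.39, adjusted p = 0.0102), levels near the counting limit, and lost its call where the 8 libraries were fitted alone, with or without a replicate block (adjusted p up to 0.23). Clec4e, the receptor Mincle, went from 4.25 ± 1.09 to 2.25 ± 0.65 CPM (adjusted p = 0.0425), and Itgal, a subunit of the integrin LFA-1, from 158 ± 10 to 199 ± 14 CPM (adjusted p = 0.0457). Clec4e lost its call without Tim-4-CD4+ replicate 2, 3 or 4 or Tim-4+CD4+ replicate 1, 2 or 4 (adjusted p up to 0.135), and Itgal without any 1 library but Tim-4+CD4+ replicate 1 (adjusted p up to 0.13). Ly6c2, the gene of the monocyte marker Ly6C, was at 1.35 ± 1.44 and 0.726 ± 0.217 CPM, and S100a9 had no count in any of the 8 libraries.

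Genes reported from resident macrophages of several tissues rose in 10 of 24 cases and fell in none (41.7% called, median 0.43). Cd163, Folr2, Marco, Fcna and C4b belong to this list too and are given above. Slc40a1, the iron exporter ferroportin, went from 94.1, 85.4, 88.4 and 106 CPM to 208, 221, 232 and 213 CPM, more than the spread of either subset (1.22 ± 0.12, adjusted p = 1.45e-05). Igf1, the insulin-like growth factor, went from 56.1, 39.9, 46.4 and 50.2 CPM to 74.1, 86.9, 97.9 and 81.2 CPM (0.82 ± 0.15, adjusted p = 0.00329). Weaker calls were those of Hpgd, which inactivates prostaglandins (120.3 to 167 CPM, adjusted p = 0.0319), Ltc4s, which makes leukotriene C4 (54.4 to 93.7 CPM, adjusted p = 0.0299), and Fxyd2, a regulator of the sodium pump (13.4 to 29 CPM, adjusted p = 0.0223). Hpgd lost its call in 6 of the 8 fits, those without Tim-4-CD4+ replicate 2, 3 or 4 or Tim-4+CD4+ replicate 1, 3 or 4 (adjusted p up to 0.108). Ltc4s lost it without Tim-4-CD4+ replicate 1, 2 or 4 or Tim-4+CD4+ replicate 1, and Fxyd2 without the same 4 or Tim-4+CD4+ replicate 4 (adjusted p up to 0.112 and 0.0799). The count of 10 fell to 5 at the lowest and was 7 without Tim-4+CD4+ replicate 1. Maf, a transcription factor of resident macrophages, had a difference of -0.08 and Hmox1, a heme oxygenase, one of 0.27, and neither passed the test.

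Iron and lipid handling were marked by a few genes. Of 22 genes of iron and heme handling 4 rose and none fell (18.2% called, median 0.23), namely Cd163, Slc40a1, Cp and Steap4. Cp, the copper-dependent ferroxidase ceruloplasmin that works with ferroportin, went from 131, 132, 125 and 120.1 CPM to 178, 206, 227 and 213 CPM (0.70 ± 0.12, adjusted p = 0.00146), and it overlaps Hps3 on the opposite strand. Steap4, a metalloreductase, was at 0.346 ± 0.114 and 1.15 ± 0.23 CPM (adjusted p = 0.019), and its call was lost without Tim-4-CD4+ replicate 1, 2 or 3 or Tim-4+CD4+ replicate 3 (adjusted p up to 0.0661). Of 28 genes of lipid-associated macrophages and cholesterol handling 3 rose and none fell (10.7% called, median 0.02). Gpnmb, a glycoprotein of lysosomes in lipid-laden macrophages, went from 49.4, 55.6, 59.4 and 62.8 CPM to 188, 185, 202 and 214 CPM, with no overlap (1.79 ± 0.20, adjusted p = 3.03e-05). Abcg1, an exporter of cholesterol, rose from 84.7 ± 5.5 to 119 ± 5 CPM, and Cd63, a tetraspanin of late endosomes, from 194 ± 27 to 322 ± 78 CPM (adjusted p = 0.033), which was lost without Tim-4-CD4+ replicate 1, 2 or 4 or Tim-4+CD4+ replicate 1 or 4 (adjusted p up to 0.12).

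Of 40 lysosomal genes 1 rose, the cathepsin gene Ctsf (36.5 ± 3.9 to 67.2 ± 12.7 CPM, 0.88 ± 0.14), and 1 fell, the sulfatase gene Arsb (13.5 ± 1.2 to 8.66 ± 0.79 CPM, -0.64 ± 0.10), with a median of 0.07. This was 5% of the list, near the 3.41% of all genes tested. Receptors and enzymes for extracellular nucleotides had 3 genes higher and 1 lower of 23 (17.4% called). P2ry2, a receptor for ATP and UTP, went from 6.19, 4.88, 6.00 and 6.16 CPM to 11.9, 11.8, 9.12 and 10.1 CPM (0.88 ± 0.13, adjusted p = 0.000402). The ATP-gated channel P2rx1 went from 15.8 ± 1.8 to 22.6 ± 3.3 CPM (adjusted p = 0.0344) and the ectonucleotidase Enpp1 from 18.1 ± 1.6 to 26.1 ± 1.9 CPM (adjusted p = 0.0193). The adenosine receptor gene Adora2b had 15, 2, 23 and 18 counts in Tim-4-CD4+ libraries and 0, 7, 0 and 0 in Tim-4+CD4+ libraries (adjusted p = 0.0147). P2rx1 lost its call in 6 of the 8 fits, all but those without Tim-4-CD4+ replicate 1 or Tim-4+CD4+ replicate 3, Enpp1 without Tim-4-CD4+ replicate 1 or 3, and Adora2b without Tim-4-CD4+ replicate 3, with adjusted p up to 0.117, 0.0589 and 0.0524.

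Growth factors moved in both directions. Of 29 genes 2 rose and 2 fell (13.8% called), with a median of 0.38. Wnt4, a secreted Wnt ligand, was at 178, 208, 150.5 and 151 CPM and at 375, 311, 239 and 319 CPM (0.86 ± 0.16, adjusted p = 0.00402), which with Igf1 made up the increases. Vegfa, the angiogenic factor, went from 12.9, 14.6, 14.9 and 15 CPM to 7.56, 7.97, 4.74 and 6.57 CPM, all 4 libraries with Tim-4 being lower (-1.09 ± 0.16, adjusted p = 0.000482). Nrg1, an ErbB ligand, was at 2.86 ± 0.52 and 1.14 ± 0.67 CPM (adjusted p = 0.0244), a call lost without Tim-4-CD4+ replicate 2 or 4 or Tim-4+CD4+ replicate 1, 3 or 4 (adjusted p up to 0.0877).

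Of 28 genes of the TGF-β and BMP pathway, which shapes gut macrophages, 1 rose and 2 fell (10.7% called, median -0.11). Ltbp3, which stores latent TGF-β in the matrix, fell from 18.3, 21.4, 29.5 and 22.5 CPM to 9.07, 10, 10.5 and 10.1 CPM (-1.21 ± 0.14, adjusted p = 3.3e-05), Eng, a coreceptor of TGF-β, from 74.3 ± 5.8 to 57.8 ± 2.7 CPM (adjusted p = 0.0192), while Bmpr1a, a BMP receptor, went from 3.29 ± 1.35 to 8.07 ± 1.35 CPM (adjusted p = 0.0316). Eng lost its call without Tim-4-CD4+ replicate 3 or Tim-4+CD4+ replicate 2 or 4, and Bmpr1a in 6 of the 8 fits, all but those without replicate 1 of either subset (adjusted p up to 0.0788 and 0.102). Of 28 cytokine and inflammatory enzyme genes 3 rose and none fell (10.7% called). Retnla, a secreted protein of alternative activation, was at 0.165, 0.354, 0.332 and 0.149 CPM and at 1.54, 0.861, 2.43 and 0.796 CPM (2.54 ± 0.42, adjusted p = 0.00223), beside 13.2 CPM in Tim-4-CD4- cells. Ebi3, a subunit shared by IL-27 and IL-35, was at 104 ± 5 and 130.5 ± 14.8 CPM (adjusted p = 0.0373), and Tslp, an epithelial-type cytokine, at 0.169 ± 0.110 and 0.697 ± 0.309 CPM (adjusted p = 0.0397). Without Tim-4+CD4+ replicate 1 only Retnla of the 3 passed. Ebi3 was also lost without Tim-4-CD4+ replicate 1, 2 or 4 or Tim-4+CD4+ replicate 4, and Tslp without Tim-4-CD4+ replicate 1, 2 or 4 or Tim-4+CD4+ replicate 2 or 3 (adjusted p up to 0.13 and 0.133).

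None of 15 genes of MHC class II presentation passed the test, a count that a list this short could also give at the 3.41% of all genes. Their differences ran from -0.43 to 0.10 with 11 below 0, and Cd74, the invariant chain, was at a mean of 31178 CPM and 29226 CPM. The nonclassical class I gene H2-M2, by contrast, went from 12.1, 24.5, 21.1 and 22.5 CPM to 88.9, 67.2, 101.4 and 121 CPM (2.24 ± 0.24, adjusted p = 1.9e-05). Of 21 costimulatory and SLAM receptor genes none rose and 3 fell (14.3% called, median -0.19). Slamf7, a self-ligand receptor, fell from 53.9, 42.4, 47.8 and 51.5 CPM to 19.6, 31, 24.4 and 17.8 CPM (-1.08 ± 0.17, adjusted p = 0.000887), and Traf1, an adaptor of TNF receptors, from 6.93 ± 1.30 to 3.54 ± 0.71 CPM (-0.97 ± 0.16). Cd84 was at 131 ± 12 and 102 ± 8 CPM (adjusted p = 0.0311), which was lost in 6 of the 8 fits, all but those without replicate 3 of either subset (adjusted p up to 0.132).

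The pattern recognition receptor genes listed were lower where they passed the test, whereas Cd209f, Cd209g and Marco, given in other lists, were higher. Of 29 pattern recognition receptor genes 4 fell and none rose (13.8% called), with a median of -0.20. Clec7a, the β-glucan receptor Dectin-1, was at 1119, 1204, 1027 and 1297 CPM and at 917, 896, 837 and 864 CPM (-0.40 ± 0.08, adjusted p = 0.0102), and lost its call without Tim-4-CD4+ replicate 4 (0.0554). Clec12a went from 16.7 ± 1.3 to 9.65 ± 2.90 CPM (adjusted p = 0.0137), Tlr2 from 53.0 ± 6.1 to 40.8 ± 4.2 CPM (adjusted p = 0.0329), and Clec4e is given above. Clec12a lost its call without Tim-4-CD4+ replicate 2 or Tim-4+CD4+ replicate 4, and Tlr2 without Tim-4-CD4+ replicate 1, 2 or 4 or Tim-4+CD4+ replicate 3 or 4 (adjusted p up to 0.0547 and 0.149). Each fit without 1 library lost at least 1 of these 4 genes. Of 21 integrin subunits 2 fell and 1 rose (14.3% called, median -0.17). Itgb7, the β7 chain used for entry into the gut, fell from 37.0, 32.9, 41.3 and 36.2 CPM to 16.6, 13.8, 16.3 and 11 CPM, far outside the spread of the subsets (-1.36 ± 0.15, adjusted p = 2.74e-05). Itgam, the CD11b of the gate, was at 267 ± 21 and 209 ± 25 CPM (adjusted p = 0.0477), lost without any 1 library but Tim-4+CD4+ replicate 1 (adjusted p up to 0.21).

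Of 39 transcription factors of macrophages 2 fell and none rose (5.13% called, near the 3.41% of all genes tested). Klf8, a Krüppel-like repressor, had 25, 5, 21 and 25 counts in Tim-4-CD4+ and 4, 4, 2 and 1 counts in Tim-4+CD4+ libraries, that is, 0.255 ± 0.148 and 0.0305 ± 0.0097 CPM, close to the counting limit (-2.94 ± 0.49, adjusted p = 0.00156). Stat4, which acts downstream of IL-12, fell from 5.31, 7.16, 10.2 and 6.76 CPM to 1.77, 2.13, 2.77 and 2.04 CPM (-1.76 ± 0.20, adjusted p = 3.03e-05). The lineage factor Spi1 was at 442 and 515 CPM and Irf8 at 639 and 745 CPM, neither of which passed the test. Of 28 immediate early and stress genes, which respond to cell isolation, 2 fell and none rose (7.14% called, median -0.13). Nr4a2, an orphan nuclear receptor, fell from 47.1, 48.0, 46.5 and 47.0 CPM to 24.2, 27.2, 25.9 and 24 CPM (-0.90 ± 0.10, adjusted p = 3.27e-05), with narrow spreads. Egr3 was at 16.6 ± 5.1 and 8.68 ± 3.03 CPM (adjusted p = 0.0381), lost without Tim-4-CD4+ replicate 3 or 4 or Tim-4+CD4+ replicate 1 or 4 (adjusted p up to 0.118). Of 28 interferon-stimulated genes, Ifi44 alone was called (3.57%, near the 3.41% of all genes tested). Ifi44 went from 32.4 ± 7.6 to 14 ± 5.8 CPM (adjusted p = 0.0442), and its call was lost without any 1 library but Tim-4+CD4+ replicate 2 (adjusted p up to 0.153).

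All 32 listed genes of DNA replication and mitosis had estimates below 0, compared with 50.2% of all genes tested. Only 4 of them passed the test (12.5%, beside 3.41% of all genes tested). Their differences ran from -1.18 to -0.10 with a median of -0.53. Hjurp, the centromere gene given above, was not in this list and was called higher. Bub1, of the spindle checkpoint, fell from 3.96, 6.25, 5.86 and 4.92 CPM to 2.65, 2.33, 3.23 and 3.25 CPM (-0.87 ± 0.19, adjusted p = 0.0131), without overlap. Top2a, Rrm2 and Kif11, which act in chromosome segregation, nucleotide synthesis and the spindle, had differences of -0.75 ± 0.19, -0.72 ± 0.16 and -0.80 ± 0.21, and Mki67 one of -0.68 (adjusted p = 0.10). Of the 32 genes, 14 had libraries that did not overlap, compared with 9.63% of all genes tested. The number called was 0 to 8 in the fits that left out 1 library, 2 without Tim-4+CD4+ replicate 1 and 14 with DESeq2. Bub1 lost its call without Tim-4-CD4+ replicate 2 (0.0533), and the calls of Rrm2, Top2a and Kif11 were lost without Tim-4-CD4+ replicate 2 or 3 or Tim-4+CD4+ replicate 2 or 4, and those of Top2a and Kif11 also without Tim-4+CD4+ replicate 1 and that of Kif11 without Tim-4-CD4+ replicate 4 (adjusted p up to 0.157). Because the RNA came from many cells, fewer cycling cells and less of these RNAs per cell cannot be told apart, as for every gene here.

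Of 22 genes taken from the study's text, those not yet given and called were all higher. Ppp1r9a, the neuronal actin-binding protein neurabin, went from 17.6, 10.9, 8.87 and 10.1 CPM to 27, 39.1, 51.5 and 44.5 CPM (1.77 ± 0.28), although 3 other genes overlap it on the same strand. Adcy3, an adenylyl cyclase, rose from 2.27 ± 0.74 to 6.77 ± 1.13 CPM (1.58 ± 0.32), the X-linked lymphocyte-regulated gene Xlr from 11.9 ± 1.7 to 33.2 ± 2.9 CPM (1.49 ± 0.24), and Fkbp9, a folding enzyme of the endoplasmic reticulum, from 8.15 ± 1.38 to 17.2 ± 2.3 CPM (1.08 ± 0.17). Id3, Lrrc4c, Dtx3 and Ocstamp, at differences of -0.43, 0.62, 0.41 and 0.49, did not pass the test (adjusted p = 0.315, 0.194, 0.255 and 0.0774). The study named these genes from the same libraries, so that their number called is no independent evidence.

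Levels in the other populations are given side by side, without a test. Ccr2 was at 2629.5 ± 341 CPM in Ly6Chi monocytes (SD, n = 3), 660.0 ± 106 CPM in Tim-4-CD4- cells (n = 4), 84.1 ± 21.6 CPM in Tim-4-CD4+ cells and 8.39 ± 5.04 CPM in Tim-4+CD4+ cells. Itgb7 was at 685 ± 166, 103 ± 10, 36.9 ± 3.5 and 14.4 ± 2.6 CPM in the same order, and Klf8 at 4.05 ± 1.71, 0.607 ± 0.176, 0.255 ± 0.148 and 0.0305 ± 0.0097 CPM. C2 was at 0.312 ± 0.145, 1.49 ± 0.89, 3.58 ± 1.29 and 38.8 ± 11.9 CPM, and Cd209f at 0.0032, 0.220, 0.382 and 11.5 CPM, so that both stayed low in all populations but Tim-4+CD4+ cells. Slc40a1, by comparison, was at 0.0891, 27.1, 93.5 and 218 CPM. Mmp9 was at 1.16 ± 0.33 CPM in monocytes, 1533 ± 187 CPM in Tim-4-CD4- cells, 3077 ± 181 CPM in Tim-4-CD4+ cells and 2157 ± 171 CPM in Tim-4+CD4+ cells, and Stat4 at 5.89 ± 0.83, 12.6 ± 1.7, 7.36 ± 2.06 and 2.18 ± 0.42 CPM, so that neither had its extremes at both ends of that order.

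**Figure D4:**
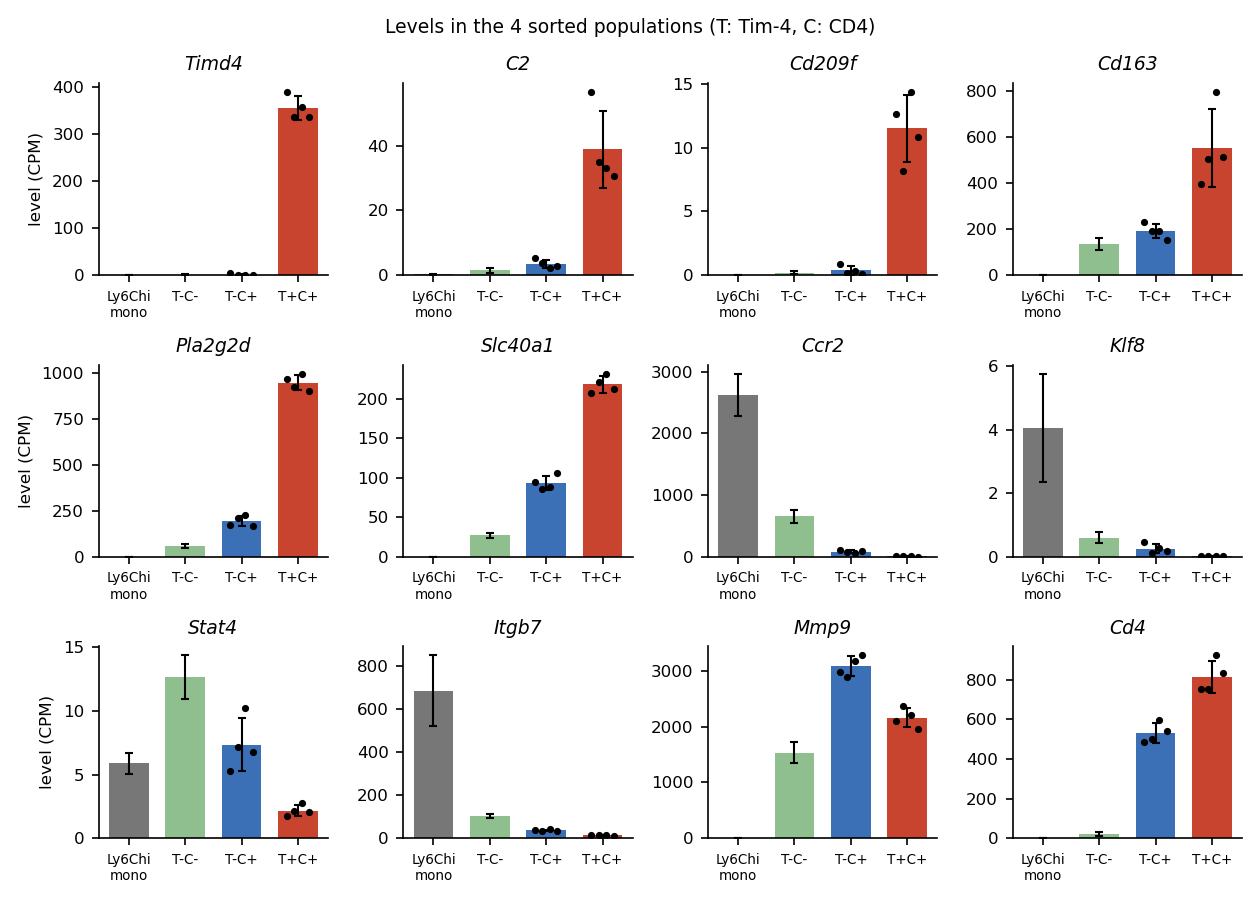
Mean levels (CPM, axis from 0) of 12 genes in Ly6Chi monocytes and the 3 macrophage subsets, from left to right without both proteins, with CD4 and with both (T, Tim-4; C, CD4), with SD over 3 or 4 libraries; points are the libraries compared. Timd4, C2 and Cd209f are near 0 outside Tim-4+CD4+ cells, and Mmp9 is highest in Tim-4-CD4+ cells.

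Genes of other cell types were read beside these results. The summed level of 9 endothelial genes was 196 to 249 CPM in Tim-4-CD4+ and 327 to 402 CPM in Tim-4+CD4+ libraries, of which Pecam1, an adhesion molecule also made by macrophages, was called higher (185 ± 18 to 305 ± 24 CPM, adjusted p = 0.00443). Without Pecam1, the sums were 23.3 to 43.3 and 36.1 to 67.4 CPM and overlapped. For 12 mesenchymal genes the sums were 103 to 130 and 141 to 212 CPM, with the collagen genes Col3a1 (27.8 ± 2.3 to 46.1 ± 7.5 CPM, adjusted p = 0.0108) and Col6a1 (9.4 ± 1.2 to 15.4 ± 4.1 CPM, adjusted p = 0.0405) called, the latter lost in each fit without 1 library but that without Tim-4+CD4+ replicate 3 (adjusted p up to 0.137). For 9 genes of enteric neurons and glia they were 1.48 to 3.94 and 6.35 to 8.03 CPM, and 1.23 to 3.68 and 2.46 to 4.10 CPM without Elavl4. The mesenchymal sum was higher in the same subset as the genes of secreted and matrix proteins that rose, and its part in those results was not tested. Across Tim-4+CD4+ replicates 1 to 4 the sum was 212, 158, 141 and 185 CPM. In the same libraries Spock1 was at 23.5, 29.5, 35.8 and 34.9 CPM and Ecm1 at 1538, 1268, 1107 and 1099 CPM. Neither had the order of the sum. Mfge8, at 42.8, 33.7, 24.5 and 35.4 CPM, and Wnt4, at 375, 311, 239 and 319 CPM, did have it. These are examples, and the other genes were not compared with the sum.

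Other lists overlapped or were lower with Tim-4. Genes of B cells and plasma cells summed to 3374 to 6465 CPM and 3368 to 7784 CPM, with none of 13 called, dendritic cell genes to 1232 to 1395 CPM and 1182 to 1273 CPM, and genes of neutrophils, eosinophils and mast cells to 172 to 203 CPM and 194 to 219 CPM. Epithelial genes summed to 38.9 to 49.8 CPM and 27.7 to 42.1 CPM, of which the lysozyme gene Lyz1 fell from 20.2 ± 3.5 to 6.74 ± 1.23 CPM (-1.58 ± 0.18). Lyz1 is a near copy of Lyz2, which macrophages express at a mean of 5257 and 4206 CPM, so that its reads are uncertain. Red cell genes summed to 4.21 to 15.5 CPM and 3.75 to 7.18 CPM.

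**Figure D5:**
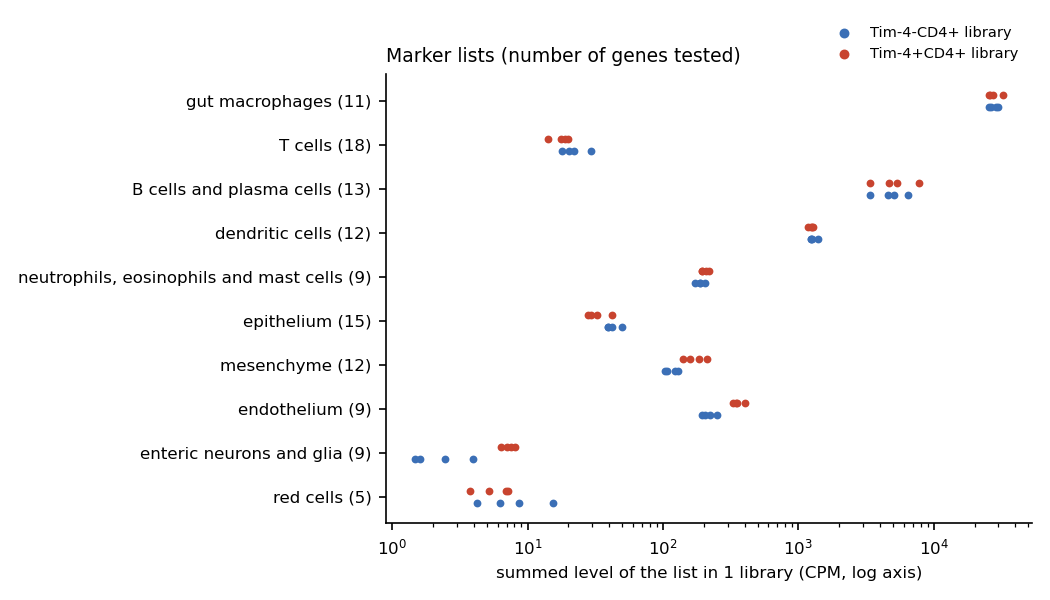
Summed levels (CPM, log axis) of marker genes of gut macrophages and 9 groups of other cells in each library, 4 of either subset. The lists of endothelium, mesenchyme and enteric neurons and glia are higher in all Tim-4+CD4+ libraries, and the macrophage and B cell lists overlap.

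Genes other than those labeled protein-coding in the annotation made up 19 of the higher and 11 of the lower genes. The 11 include Clec7a, given above, which the annotation labels a polymorphic pseudogene. Of 4 called genes without any count in 1 subset, the antisense gene Gm12996 and the noncoding Gm33027 were at least 10.4-fold and 7.52-fold higher in Tim-4+CD4+ cells, against a floor of 3 counts per library. The noncoding Gm13373 and the pseudogene Gm12854 were at least 1.36-fold and 1.35-fold lower.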

How the data were processed

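RNA from the sorted cells was made into strand-specific mRNA libraries and sequenced from both ends. After trimming (Trimmomatic 0.36) and alignment with STAR to GRCm38.p4, the authors used HTSeq 0.6.1p1 and GENCODE vM11 to count unique reads per gene, and deposited these raw counts, which were used here without change. The strand setting of the count was not given in the sources used here. The authors also deposited a normalized signal, the counts divided by 1 size factor per library, which was not tested. Columns were matched to libraries by name, and no per-sample column was left without a library.

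Counts were fitted with edgeR 4.0.16 (R 4.3.3, limma 3.58.1) in 1 quasi-likelihood model of all 15 libraries and 4 populations, after filterByExpr by population, which left 15802 of 19456 genes, and TMM scaling. The contrast was Tim-4+CD4+ minus Tim-4-CD4+, with Benjamini-Hochberg adjustment and a threshold of 0.05. Standard errors are the log2 fold change divided by the root of F. Gene lists are described by counts and medians. Symbols and positions came from GENCODE M21 (GRCm38), which matched 19421 gene IDs without their version, and promoters from RefSeq, GRCm38.p6.

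Members and gene lists were chosen with earlier results of these data known. Named genes are the sort genes, the markers given for the comparison (Cd209g, Klf8 and Ccr2), 22 genes from the study's text (Edil3, also in it, entered through its list), the 15 largest log2 changes and the 8 largest differences in mean CPM in each direction (called, averaging 1 CPM or more, no overlap), and members of lists. Some list members are not reported here by name but count in their lists. The labels do not say that libraries come from separate animals beyond the pools of 3 mice, and subsets may share a sort and its mice, so p-values measure the spread between these pools. Floors and intervals cover counting error only, since reads carried no molecular identifiers. Alternatives were DESeq2 1.42.0, other normalizations and filters, fits of fewer libraries, a replicate block, thinned counts, a 2-fold threshold and leaving out each library. The steps were tested on simulated data with known changes. Figures were drawn with matplotlib 3.10.9.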

Additional observations from a re-analysis of the deposited data

Results flagged for a closer look

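In 15 of 230 groups of 4 libraries (115 named genes in both subsets), 1 library lay further from the other 3 than Dixon's 95% limit for 4 samples allows, and chance gives about 1 in 20. Of these, 5 were in Tim-4-CD4+ replicate 3, where Traf1 (8.86 CPM), Id3 (11.5 CPM) and Eng (83.0 CPM) were the highest and Cx3cr1 (828 CPM) and Elavl4 (0.0767 CPM) the lowest of the group. Another 4 were in Tim-4+CD4+ replicate 1, which was the highest for Gpx3 (498 CPM), Ltc4s (138 CPM), Ebi3 (153 CPM) and Ly6c2 (1.05 CPM). Tim-4+CD4+ replicate 2 was the highest for Zfand5 (290.4 CPM), Nrg1 (2.13 CPM) and Adora2b (0.0602 CPM, the others having no count), and Tim-4+CD4+ replicate 3 for Stab2 (17.2 CPM). Tim-4-CD4+ replicate 1 was the highest for Cd177 (0.586 CPM), and replicate 2 the lowest for P2ry2 (4.88 CPM).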

How the results depend on the processing

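The 539 genes called (327 higher, 212 lower) were 277 (184 and 93) where a 2-fold change was also required, 917 (555 and 362) with DESeq2, 537 of them shared, and 512 to 617 under other normalizations, filters, thinned counts or a fit of the 12 macrophage libraries. With the 8 libraries alone, 488 genes were called (332 and 156). Leaving out 1 library gave 399 to 540 genes, 243 to 333 higher and 155 to 207 lower. The replicate numbers showed no clear pairing of the libraries. Same-numbered deviations correlated at -0.123 to 0.134 by title numbers and -0.0239 to 0.138 by description numbers, which differ for the Tim-4-CD4+ libraries. Not every library correlated best with its own number. Correlations this weak cannot tell whether libraries share a sort. A replicate block on the 8 libraries gave 285 genes (206 and 79) by titles, of which 72.3% were higher against 60.7% in the reported fit, and 415 genes (283 and 132) by descriptions. Of 108 named genes called, 63 were called under every alternative that gave a value, and none changed direction. Among genes not called, leaving out 1 library moved Ly6c2 from -1.16 to 0.17 (the latter without Tim-4-CD4+ replicate 1) and Cx3cr1 from -0.12 to 0.036 (0.0023 if Tim-4-CD4+ replicate 4 was left out, 0.036 for Tim-4+CD4+ replicate 3), and the causes were not tested. Cd4 passed only in the fits of the 8 libraries (adjusted p from 0.0073 to 0.358 over the alternatives), and Ocstamp with DESeq2 or without Tim-4+CD4+ replicate 3. DESeq2 gave no adjusted p for Timd4, the fits of 8 libraries gave no value for Klf8 and Adora2b, and a mean of 1 CPM removed Klf8, Retnla, Marco, Cd177, Tslp, Steap4 and Adora2b. Differences of genes below about 1 CPM rest on few counts.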

Other observations

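Several called genes outside the lists, chosen after their values were seen, encode receptors for hormones and transmitters. The calls in this paragraph and the next were not followed under the alternatives or without single libraries. Adrb1, the β1-adrenergic receptor, had a mean of 10.9 ± 1.8 CPM in Tim-4-CD4+ and 37.8 ± 4.6 CPM in Tim-4+CD4+ libraries (SD, n = 4), a difference of 1.79 ± 0.14 on the log2 scale (adjusted p = 1.3e-06). Epor, the erythropoietin receptor, was at 16.6 ± 2.4 and 41.1 ± 9.4 CPM (1.30 ± 0.16). Both endothelin receptors were higher with Tim-4, Ednra at 0.524 ± 0.30 and 2.70 ± 0.33 CPM and Ednrb at 1.51 ± 0.39 and 5.15 ± 1.1 CPM, and so was Lgr4, a receptor for R-spondins (3.27 ± 0.48 and 9.67 ± 1.5 CPM). None of these 5 genes had overlapping libraries. In the other direction, the leukotriene B4 receptor Ltb4r1 fell from 2.69 ± 0.66 to 0.861 ± 0.23 CPM (-1.63 ± 0.20), Il7r, the IL-7 receptor, from 5.90 ± 1.1 to 2.63 ± 0.76 CPM and the prostaglandin E2 receptor Ptger4 from 104 ± 7.5 to 72.0 ± 12 CPM, while the libraries of Ptger3 overlapped (1.56 ± 1.1 and 0.313 ± 0.21 CPM, adjusted p = 0.025). The kinase gene Lrrk2 fell from 2.09 ± 0.53 to 0.791 ± 0.14 CPM and Vdr, the vitamin D receptor, from 2.83 ± 0.47 to 1.49 ± 0.40 CPM. E2f8 and E2f7, repressors that act in the cell cycle, fell from 19.8 ± 3.6 to 10.5 ± 2.7 CPM and from 2.67 ± 0.41 to 1.48 ± 0.25 CPM.

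A further set, also chosen after its values were seen, encodes matrix and guidance proteins. Nid2, of basement membranes, rose from 3.65 ± 0.68 to 12.4 ± 2.5 CPM (1.78 ± 0.21, adjusted p = 5.2e-05), Postn, periostin, from 2.67 ± 0.33 to 7.54 ± 1.2 CPM and Col18a1, a collagen, from 3.91 ± 0.97 to 8.91 ± 2.5 CPM. The fibulin genes Fbln1 and Fbln5 rose by 0.81 ± 0.19 and 1.09 ± 0.25. Slit3, a secreted guidance cue, rose from 4.26 ± 0.39 to 11.6 ± 1.3 CPM, the netrin receptors Unc5a and Unc5b by 1.72 ± 0.31 and 0.72 ± 0.16, and Rspo1, an R-spondin, from 4.48 ± 0.59 to 7.90 ± 2.1 CPM (adjusted p = 0.048). The summed level of mesenchymal markers was higher in the same libraries, and its part in these values was not tested.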
